A study of Mus musculus with 4 samples.

Results

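A set of 41 genes for fatty acid uptake and oxidation was followed in mouse hearts under pressure overload. The members were listed by their known function, from uptake at the cell surface to the regulators of the pathway, and the set was proposed with earlier results of these data known. All 41 had a probe named by one of their transcripts, among 21762 genes with such a probe on the array. They matched 56 of the 55681 probes other than controls, and the brightest probe of each gene is reported.

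Total RNA of hearts from male C57BL/6J mice was hybridized to 4 single-color Agilent arrays. In transverse aortic constriction (TAC) the aortic arch is narrowed by surgery, so that the left ventricle ejects against a raised pressure, and sham mice have the operation without the constriction. The conditions were sham and TAC at 2 weeks, with a labelled age of 10 weeks, and sham and TAC at 8 weeks, with a labelled age of 16 weeks. The ages in the labels and in the paper's methods differ. Each condition was 1 array that held RNA pooled from 4 to 6 mice, with 500 ng from each. The pooled mice share 1 value, so mice could not be compared within a condition, there was no test, and every change below is a ratio of 2 pools. The mice carried no transgene or deletion by the labels, and the labels give the tissue as heart without naming the chamber.

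The adult heart draws most of its energy from fatty acids. They enter the cardiomyocyte through surface and binding proteins, are activated to acyl-CoA, cross the mitochondrial membranes as carnitine esters and are shortened step by step by beta-oxidation. The electrons pass to the respiratory chain, and the nuclear receptors PPAR alpha and the estrogen-related receptors, with the coactivators PGC-1 alpha and beta, drive the genes of these steps. Hypertrophied hearts are known for a shift from fatty acids toward glucose.

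Signals are given as multiples of the array's 75th percentile over probes, which was 206.5 and 206.0 on the 2-week sham and TAC arrays and 221.2 and 248.5 on the 8-week arrays. Well above background were 54.7% to 58.5% of the probes by array, and no spot was saturated. Spots of the same probe varied with an SD of 0.171 on the log2 ratio of 2 spots, over 282 probes with 10 spots each, and of 0.0943 for the 171 of them above the 75th percentile. This SD covers spot error only, and the number of arrays limits the precision. The hypertrophy marker Myh7, a fetal myosin heavy chain gene, was at 69.4 and 455 on the 2-week sham and TAC arrays and at 69.3 and 895 on the 8-week arrays, so both TAC pools stood far above both sham pools. The cardiomyocyte troponin gene Tnnt2 was at 1061, 922, 1008 and 915 on the 2-week sham and TAC and the 8-week sham and TAC arrays, in that order. The white fat genes Adipoq, Lep, Plin1 and Cidec and the brown fat genes Ucp1 and Elovl3 were not well above background on any array. Of the same white fat markers, Retn and Cfd were so on all 4. Retn was at 0.163, 0.122, 0.137 and 0.0857 and Cfd at 0.220, 0.112, 0.145 and 0.164, in the order of Tnnt2.

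All 41 members were well above background on all 4 arrays, and 28 of them had a mean over 10 times the 75th percentile. Their median log2 ratio of TAC over sham was -0.28 at 2 weeks and -0.29 at 8 weeks, beside -0.01 and -0.01 for all 14294 genes measured on every array and -0.05 and -0.01 for the 2895 genes over 10 times the 75th percentile. Lower signals in the TAC pool were found for 34 of 41 members at 2 weeks, against 49.9% of the genes tested, and for 37 of 41 at 8 weeks, against 51.5%. Of the 2895 genes over 10 times the 75th percentile, 1852 were lower at 2 weeks and 1508 at 8 weeks. At both times 32 members were lower and 2, Acsl5 and Acot13, were higher. The share of all genes lower at both times was not counted. The ratios of the 2 times were correlated over all genes measured on every array (Pearson r 0.59) and over the 2895 (0.83). The changes were small in size. Over 20% below sham were 15 members at 2 weeks (9.24% of all genes tested) and 18 at 8 weeks (14%), and 11 members were so at both times, beside 4.58% of the genes measured on every array. Among genes over 10 times the 75th percentile the members over 20% below sham were 11 of 28 at 2 weeks, against 6.15%, and 13 of 28 at 8 weeks, against 6.04%. Over 25% above sham were Acsl3 at 2 weeks, where 15.6% of genes were, and Acsl5 at 8 weeks, where 15.2% were. Of the 2895 genes over 10 times the 75th percentile, 157 and 273 were.

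Past 1.5-fold, only Acot1 was lower at 2 weeks, a count close to the background of 3.35%. At 8 weeks 4 members passed, Acot1, Acot2, Slc27a1 and Acaa2, where 5.64% of genes did. Slc27a1, 33.7% below sham, and Acaa2, 33.3% below, lay just past the threshold. None of the 41 was higher past 1.5-fold at either time, while 6.79% and 7.26% of genes were at 2 and 8 weeks. The count at 8 weeks rests on the scaling. It was 1 of 41 when arrays were scaled by their median or not scaled, and the members over 20% below sham were then 12 and 7 in place of 18, beside 8.00% and 5.67% of the 14294 genes. At 2 weeks the members over 20% below sham were 21 when scaled by the median and 10 under quantile normalization, in place of 15. Of these genes, 10.6% and 8.78% were so, in place of 8.49%.

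**Figure D1:**
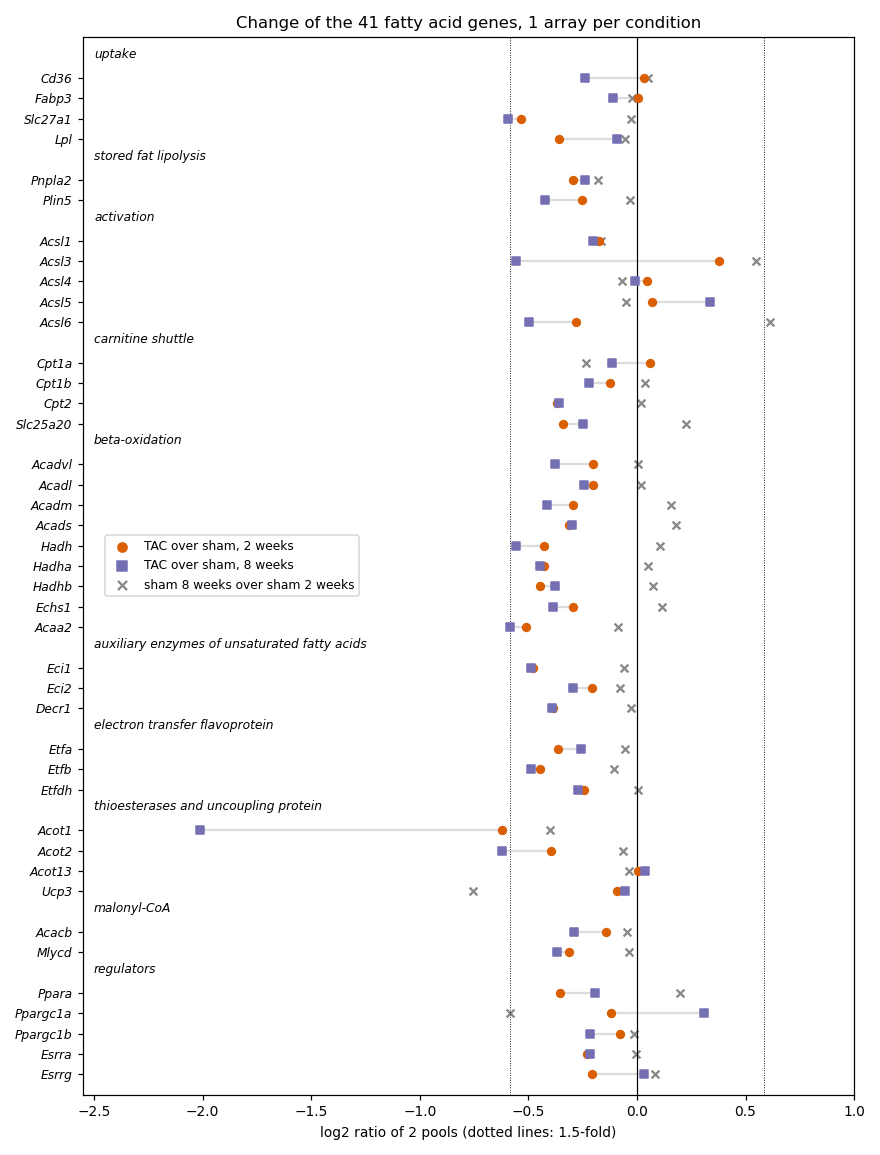
The log2 ratio of 2 pools (horizontal axis) is plotted for each of the 41 members, by role. Circles are TAC over sham at 2 weeks, squares TAC over sham at 8 weeks and crosses the 8-week over the 2-week sham pool, each from 1 array per pool. Most circles and squares lie left of 0, with medians of -0.28 and -0.29, and Acot1 lies farthest left with -2.01 at 8 weeks.

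The sham pools compare hearts without constriction. They differed in time, in labelled age and in mice, which cannot be told apart. The members' median difference of the 8-week over the 2-week sham pool was -0.03, with 24 of 41 lower, beside 43.2% of genes, and unscaled it was 0.07, with 7 lower. The ratio of TAC over sham was larger in size than the member's own sham difference for 32 members at 2 weeks, for 34 at 8 weeks and for 30 at both, beside 59.1%, 63.6% and 46.4% of all genes measured on every array and 65.7%, 70.4% and 54.6% of the bright genes, those over 10 times the 75th percentile. Both TAC pools lay below both sham pools for 29 of 41 members, against 25.7% of the 14294 genes, and for 23 of the 28 bright members, against 34.4% of the bright genes. Both lay above for Acsl5 and Acot13, where 23.8% of genes did so.

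Of the uptake genes, the transporter Slc27a1 had the largest difference. It was at 5.57 in the sham and 3.84 in the TAC pool at 2 weeks and at 5.47 and 3.63 at 8 weeks. The sham pools were nearly alike, and the TAC pools were 31.0% and 33.7% lower. Lipoprotein lipase (Lpl), which frees fatty acids from circulating triglyceride, was at 322 and 251 at 2 weeks and at 310 and 291 at 8 weeks. Both TAC pools were below both sham pools, with a log2 ratio of -0.36 at 2 weeks and -0.09 at 8 weeks.

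The surface translocase Cd36 was at 19.50 and 19.97 at 2 weeks and at 20.19 and 17.1 at 8 weeks. Only the 8-week TAC pool stood below the others, by 15.4% of its sham pool. Fabp3, the fatty acid-binding protein of heart cytosol, was at 1216, 1221, 1198 and 1112 in the same order, with log2 ratios of 0.01 and -0.11. For stored fat, the triglyceride lipase Pnpla2 was at 75.1 and 61.1 at 2 weeks and at 66.2 and 56.1 at 8 weeks, with sham pools that themselves differed by -0.18. The lipid droplet protein Plin5 was at 104.1 and 87.4 at 2 weeks and at 101.7 and 75.8 at 8 weeks. Its log2 ratios were -0.25 and -0.42, and its sham pools differed by -0.03.

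The acyl-CoA synthetases, which activate long-chain fatty acids, did not move together. Acsl1, the main form in the heart, was at 147 and 131 at 2 weeks and at 131 and 114 at 8 weeks. Its TAC pools were lower by 11.3% and 13.1%, but the 8-week sham pool stood nearly as far below the 2-week sham pool, by 10.96%. A dimmer Acsl1 probe gave log2 ratios of -0.23 and -0.43 for TAC over sham and 0.05 between the sham pools. Acsl4 gave 1.99, 2.06, 1.90 and 1.89, with log2 ratios of 0.04 and -0.01. Acsl5 was higher at 8 weeks, at 1.13 against 0.890 in sham, and was at 0.967 and 0.922 at 2 weeks.

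The dimmest members were also synthetases. Acsl3 was at 0.155 in sham and 0.201 in TAC at 2 weeks and at 0.226 and 0.154 at 8 weeks, so that it was higher at one time and lower at the other. Acsl6 was at 0.531 and 0.436 at 2 weeks and at 0.812 and 0.576 at 8 weeks. The 8-week over the 2-week sham pool gave 0.55 on the log2 scale for Acsl3 and 0.61 for Acsl6, beside TAC over sham of 0.38 and -0.56 for Acsl3 and -0.28 and -0.50 for Acsl6.

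**Figure D2:**
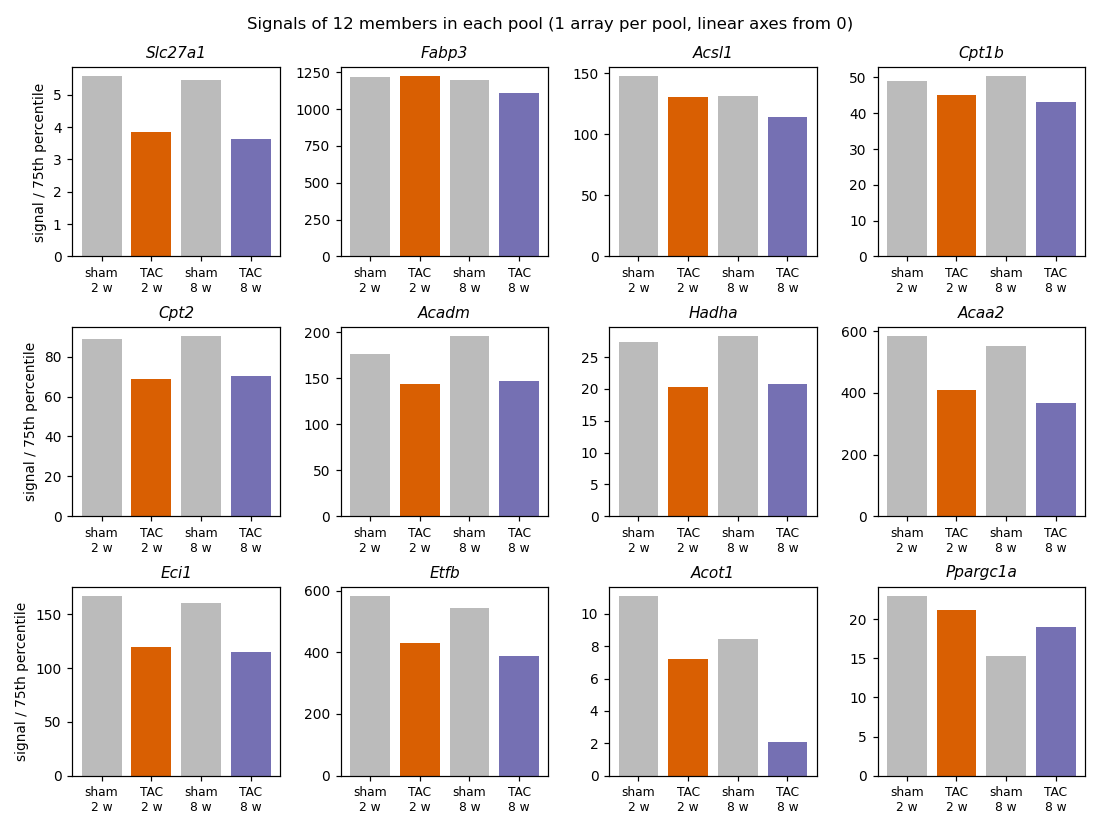
Signals of 12 members, as multiples of the array's 75th percentile, are plotted for the 4 pools on linear axes from 0, with 1 array per pool and hence no error bars. Both TAC bars are below both sham bars in 10 panels, Fabp3 is nearly level (1216, 1221, 1198 and 1112) and Ppargc1a is lowest in the 8-week sham pool (15.3).

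The carnitine shuttle carries acyl groups into the mitochondrion. Cpt1b, the muscle form of the outer membrane carnitine palmitoyltransferase and the entry step of the pathway, was at 49.0 and 45.0 at 2 weeks and at 50.3 and 43.1 at 8 weeks. Its log2 ratios of -0.12 and -0.22 were smaller in size than those of Cpt2, the enzyme at the inner membrane, at -0.37 and -0.36. Cpt2 was at 89.2 and 69.1 and at 90.4 and 70.6, so the sham pools were nearly equal and so were the TAC pools. A further probe for Cpt2, of lower signal, gave -0.38 and -0.47.

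Cpt1a, the liver form, was at 2.80 and 2.93 at 2 weeks and at 2.38 and 2.20 at 8 weeks, so that on this probe both 8-week pools were below both 2-week pools. A dimmer Cpt1a probe gave -0.10 and -0.33 for TAC over sham and -0.12 between the sham pools. The carnitine-acylcarnitine carrier Slc25a20 was at 5.79 and 4.58 and at 6.77 and 5.69. Its TAC pools were the lowest 2 of the 4, but the 2-week sham pool was only slightly above the 8-week TAC pool.

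The 9 enzymes of the beta-oxidation spiral were all lower in TAC at both times. In each of them both TAC pools were below both sham pools, beside 25.7% of all genes and 34.4% of the bright genes. Their median log2 ratios were -0.31 and -0.39, and those of the sham pools 0.07. The acyl-CoA dehydrogenases take the first step, each for a range of chain lengths. Acadvl, for very long chains, was at 439 and 382 at 2 weeks and at 440 and 338 at 8 weeks. Acadm, for medium chains, was at 176 and 143 and at 196 and 147, a log2 ratio of -0.29 at 2 weeks and -0.41 at 8 weeks. Acadl, for long chains, and Acads, for short chains, had ratios between -0.20 and -0.31.

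The later steps hydrate, oxidize and cleave the chain. Hadha and Hadhb, the alpha and beta subunits of the mitochondrial trifunctional protein, had log2 ratios of -0.43 and -0.45 at 2 weeks and -0.45 and -0.38 at 8 weeks. Hadha was at 27.3 and 20.3 at 2 weeks and at 28.3 and 20.8 at 8 weeks. Hadhb was at 252 and 185 and at 265 and 204. The subunits differed in their log2 ratios by less than the SD between spots, 0.0943, at both times. This SD is for the ratio of 2 spots and not for a difference of ratios.

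Hadh, a hydroxyacyl-CoA dehydrogenase, was at 70.3 and 52.2 at 2 weeks and at 75.6 and 51.4 at 8 weeks, and its TAC pools were 25.8% and 32.0% lower. The hydratase Echs1 had ratios of -0.29 and -0.39. Acaa2, the thiolase that ends each turn, was at 585 and 411 at 2 weeks and at 551 and 367 at 8 weeks. Its TAC pools were 29.7% and 33.3% lower, and its probe has 10 spots on each array, whereas 39 of the members have 1.

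Hadha and Hadhb lie head to head in the genome, with start sites 273 bp apart on opposite strands of chromosome 5, and the 250 bases before the start of Hadhb fill most of the stretch between them. This stretch is shown because the pair of subunits had nearly the same ratios. Such likeness was not particular to the pair, since Etfb, for one, had -0.44 and -0.49. A link of the stretch to the ratios was not tested. It is taken from RefSeq on GRCm38.p6, 5′ to 3′, at chr5:30155003-30155252 on the plus strand, and 58.8% of its bases are G or C.
Hadhb: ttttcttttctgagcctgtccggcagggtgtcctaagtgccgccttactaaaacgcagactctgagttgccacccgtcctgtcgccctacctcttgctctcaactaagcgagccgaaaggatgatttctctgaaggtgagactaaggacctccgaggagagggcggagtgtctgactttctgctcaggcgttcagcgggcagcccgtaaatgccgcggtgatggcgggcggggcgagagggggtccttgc

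For the auxiliary enzymes of unsaturated fatty acids, the log2 ratios were much alike at both times. The enoyl-CoA isomerase Eci1 was at 167 and 120.1 at 2 weeks and at 161 and 114.6 at 8 weeks, with ratios of -0.48 and -0.49. The dienoyl-CoA reductase Decr1 was at 239.9 and 183 and at 235 and 179, with -0.39 at both times. Eci2, a further isomerase, had -0.21 and -0.29. All 3 had both TAC pools below both sham pools.

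The electron transfer flavoprotein takes the electrons of the acyl-CoA dehydrogenases to the respiratory chain. Its beta subunit Etfb was at 583 and 429 at 2 weeks and at 543 and 387 at 8 weeks, and its TAC pools were 26.5% and 28.7% lower. The alpha subunit Etfa was at 136 and 105.9 and at 131 and 109.9, with log2 ratios of -0.36 and -0.26. A dimmer probe for Etfa gave -0.31 and -0.60, so its size at 8 weeks depends on the probe. Etfdh, which hands the electrons to ubiquinone, had ratios of -0.25 and -0.27.

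Of the 19 members of the shuttle, the spiral, the auxiliary enzymes and the electron transfer, 18 had both TAC pools below both sham pools. Cpt1a was the exception. This order held for 25.7% of all genes measured on every array and 34.4% of the bright genes, and it requires no minimum gap. Their median log2 ratio was -0.34 at 2 weeks and -0.38 at 8 weeks, and 0.02 between the sham pools.

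The thioesterases split acyl-CoA back into fatty acid and CoA. Acot1, a cytosolic thioesterase, was at 11.1 and 7.22 at 2 weeks and at 8.42 and 2.087 at 8 weeks. Its TAC pool was 1.54-fold lower at 2 weeks and 4.03-fold lower at 8 weeks, the largest difference of the 41 members, and the pools ran in the order 2-week sham, 8-week sham, 2-week TAC, 8-week TAC. The sham pools differed as well, by -0.40. Acot2, its mitochondrial relative, was at 1.249 and 0.950 and at 1.20 and 0.776, which is 1.31-fold lower at 2 weeks and 1.54-fold lower at 8 weeks.

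Acot1 and Acot2 lie on the same strand with start sites 21641 bp apart, and their transcripts were 93.8% identical over 1337 aligned bases. A probe could thus take up RNA of both. This was not tested, since the probe sequences were not used here, and the values of the pair are uncertain in that sense. Acot13, a thioesterase of another protein family, was at 347, 347, 338 and 347 and was the most level of the members. Ucp3, a carrier of the inner mitochondrial membrane, was at 3.24 and 3.04 at 2 weeks and at 1.92 and 1.85 at 8 weeks. Its pools parted by time, with a log2 difference of -0.75 between the sham pools, and TAC differed from sham by -0.09 and -0.05. A dimmer Ucp3 probe gave -0.44 and -0.75 for TAC over sham and -1.47 between the sham pools, so the probes differ on TAC and share the direction by time.

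Malonyl-CoA blocks the entry of fatty acids at Cpt1. Acacb, which makes it, was at 37.5 and 34.0 at 2 weeks and at 36.3 and 29.7 at 8 weeks. Mlycd, which breaks it down, was at 70.9 and 57.1 and at 69.2 and 53.6. Both were lower in TAC, with log2 ratios of -0.14 and -0.29 for Acacb and -0.31 and -0.37 for Mlycd. The maker and the breaker of the inhibitor were both lower, and a dimmer probe for Acacb gave -0.46 and -0.35.

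The 5 regulators had median log2 ratios of -0.21 and -0.19. Ppara, the nuclear receptor PPAR alpha, was at 21.5 and 16.8 at 2 weeks and at 24.6 and 21.5 at 8 weeks, a ratio of -0.35 and -0.19. The 8-week TAC pool was level with the 2-week sham pool on this probe. On 2 dimmer probes both TAC pools were below both sham pools, with ratios of -0.29 and -0.35 and of -0.19 and -0.22. Esrra, the estrogen-related receptor alpha, was at 73.4 and 62.5 and at 73.2 and 63.0, with ratios of -0.23 and -0.22 against sham pools that were nearly equal. Esrrg, the gamma receptor, was at 1.54 and 1.34 at 2 weeks and at 1.63 and 1.66 at 8 weeks, so it was lower at 2 weeks alone.

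The coactivator genes went separate ways. Ppargc1a (PGC-1 alpha) was at 23.0 and 21.2 at 2 weeks and at 15.3 and 19.0 at 8 weeks, with log2 ratios of -0.12 and 0.31. The 8-week sham pool was the lowest of the 4, at -0.59 against the 2-week sham pool, and a dimmer probe gave -0.19, 0.22 and -0.78 in the same comparisons. Ppargc1b (PGC-1 beta) was at 3.02, 2.86, 2.99 and 2.57, with ratios of -0.08 and -0.22.

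Promoter windows of 300 bases, 250 before and 50 after the start site, were matched in RefSeq (GRCm38.p6) for 35 of the 41 members. They were searched on both strands for AGGTCA, the half-site that nuclear receptors of these families bind. It was in 9 of the 35 windows, or 25.7%, and in 18.1% of the windows of 27025 genes. TCAAGGTCA, the extended half-site of the estrogen-related receptors, which contains AGGTCA, was in the window of Acsl6 only, and in 0.466% of all windows. A direct repeat of AGGTCA with 1 base between the copies, the PPAR element in its exact form, was in none of the 35 and in 0.0481% of all. These letters in this window are a description and not a site of binding. The promoters of Acot1, which had the largest difference, and of Acadm, which holds a half-site, are shown as the 250 bases before the start, at chr12:84009252-84009501 on the plus strand and chr3:153944644-153944893 on the minus strand. The capitals mark the half-site, read here as its reverse complement.
Acot1: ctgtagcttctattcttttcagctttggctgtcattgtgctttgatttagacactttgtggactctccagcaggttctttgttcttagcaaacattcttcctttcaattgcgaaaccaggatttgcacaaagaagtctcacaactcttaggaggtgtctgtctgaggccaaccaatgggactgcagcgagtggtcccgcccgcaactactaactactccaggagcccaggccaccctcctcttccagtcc
Acadm: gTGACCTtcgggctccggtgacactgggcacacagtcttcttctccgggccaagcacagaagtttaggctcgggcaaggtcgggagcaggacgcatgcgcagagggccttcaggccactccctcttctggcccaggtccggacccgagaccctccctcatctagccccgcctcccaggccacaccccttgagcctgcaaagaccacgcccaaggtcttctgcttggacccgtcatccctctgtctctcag

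Of 65 other genes of fatty acid metabolism, 63 were measured on every array. Their median log2 ratios were -0.10 and -0.08, with 41 of the 63 lower at 2 weeks and 41 at 8 weeks. Of the 65, the 21 in oxidation had -0.22 and -0.19. The 14 in uptake and lipoprotein handling had 0.08 and -0.17, and the 16 nuclear factors -0.06 and -0.05. The 14 in synthesis and esterification had 0.06 and 0.06, with 7 and 5 lower. Their summed signal was 302 in sham and 269 in TAC at 2 weeks and 308 and 271 at 8 weeks. Most of this sum was Dgat2, chosen after its values were seen, with ratios of -0.24 and -0.29. Only Ech1 was lower past 1.5-fold at both times among the 65. Ech1, a dienoyl-CoA isomerase of mitochondria and peroxisomes, was at 249 and 165 at 2 weeks and at 245 and 154 at 8 weeks, with ratios of -0.59 and -0.67.

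The 26 genes of the respiratory chain and citrate cycle were all lower in both TAC pools than in both sham pools, as were 34.4% of the bright genes. Their ratios kept to a narrow range, from -0.37 to -0.08 at 2 weeks and from -0.51 to -0.14 at 8 weeks. Their medians were -0.20 and -0.23, and those of the 41 members lay 0.08 and 0.05 further down. The 19 members of the mitochondrial steps lay 0.14 further down at both times, and 17 of the 19 were below the respiratory median at each time. At 2 weeks 7 of the 19 were below the lowest respiratory gene, and at 8 weeks 2. Without scaling, 23 of the 26 respiratory genes were lower at 8 weeks. Lower signals were thus found in both lists, and no test was possible of the difference between them.

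The 28 genes of glucose use gave medians of -0.10 and -0.05, with 21 lower at 2 weeks and 18 at 8 weeks. Scaled by the array median, the 8-week median was 0.04, beside 0.08 for all genes measured on every array. Unscaled it was 0.12, with 9 lower, beside 0.16 for all these genes. The members had an unscaled median of -0.12, with 32 of 41 lower. These settings moved all ratios by the same amount, so the gap between the members and the glucose genes stayed the same. Only Pfkfb1, of the enzyme family that sets the level of a glycolytic activator, was past 1.5-fold at both times, at 6.48 and 3.29 and at 6.29 and 1.97.

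**Figure D3:**
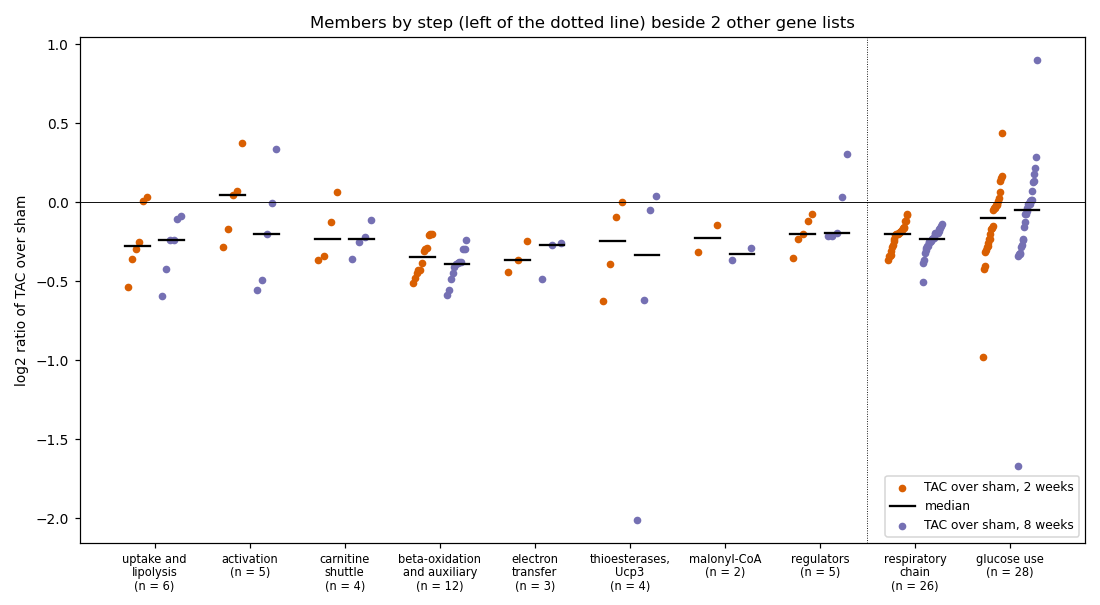
The log2 ratio of TAC over sham (vertical axis) is plotted for each gene at 2 weeks (orange) and 8 weeks (purple), with the members by step left of the dotted line and the respiratory chain and glucose lists right of it. Points are genes, each from 1 array per pool, and black bars are medians. The 12 beta-oxidation and auxiliary enzymes lie below 0 at both times, as do all 26 respiratory genes, while the glucose genes lie on both sides.

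**Figure D4:**
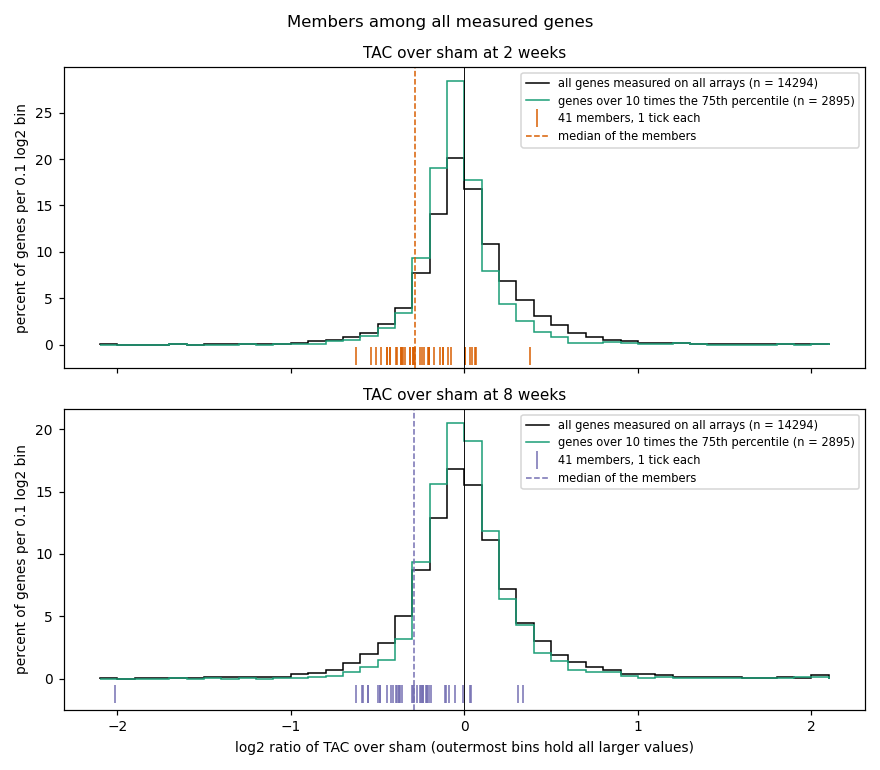
The percent of genes per bin of 0.1 (vertical axis) is plotted against the log2 ratio of TAC over sham at 2 weeks (top) and 8 weeks (bottom), for all 14294 genes measured on every array and for the 2895 genes over 10 times the 75th percentile. Ticks are the 41 members, and the dashed line is their median, at -0.28 and -0.29, left of the peak of both distributions.

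Markers of other cells moved in the same arrays. The 6 fibroblast markers were all higher in TAC at both times, with median log2 ratios of 0.93 and 0.87. Their summed signal was 198 in sham and 271 in TAC at 2 weeks and 222 and 320 at 8 weeks. Most of this sum was Dcn, at 143 in the 2-week sham pool, with ratios of 0.18 and 0.28. The 5 macrophage markers with a probe were also all higher, with medians of 0.44 and 0.40, summing to 33.0 and 41.3 and to 33.8 and 42.9. The 10 cardiomyocyte markers summed to 10533 and 9974 at 2 weeks and to 10038 and 9101 at 8 weeks, with median log2 ratios of -0.12 and -0.16 and with 6 and 8 of the 10 lower. The 6 endothelial markers had medians of 0.21 and -0.01, and the 4 smooth muscle markers 0.18 and 0.22. Of the 6 hypertrophy genes, Myh7, Nppa, Nppb and Acta1 were higher at both times and Myh6 and Atp2a2 lower, with list medians of 1.44 and 2.30. Of the adipocyte markers 4 of 6 and of the brown fat markers 2 of 5 were on no array well above background, and the others of brown fat, Cidea, Cox7a1 and Cox8b, are also heart genes. The 6 adipocyte markers together summed to 0.530 and 0.355 and to 0.416 and 0.368. Of the 5 atrial markers, 2 were measured on all arrays, Nppa at 1.84 and 2.65 and Myl4 at -0.01 and -0.52. Of the 6 skeletal muscle markers, Myh1, Myh4 and Mylpf were on no array well above background and Acta1, which the stressed heart also expresses, was at 3.09 and 3.41. Of the 4 erythroid markers with a probe, 3 were measured on all arrays, and these had ratios of -0.28 to -0.30 at 2 weeks and 0.08 to 0.13 at 8 weeks. The part of these shifts in the lower signals of the members was not tested, and in bulk hearts fewer cardiomyocytes and less RNA per cardiomyocyte cannot be told apart.

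Between the sham pools, 5 members passed the lower threshold. Ucp3, Ppargc1a and Acot1 were over 20% lower at 8 weeks, 7.32% of the members beside 6.29% of genes. Acsl3 and Acsl6, the dimmest members, were over 25% higher, 4.88% of the members beside 9.02% of genes. Past 1.5-fold were Ucp3 and Ppargc1a (2.32% of genes lower) and Acsl6 (3.8% higher). Pdk4, which is no member and was chosen after its values were seen, was at 107.2 in the 2-week and 33.6 in the 8-week sham pool. Pdk4 blocks pyruvate oxidation. In Pdk4 and on the brightest probe of Ucp3 the TAC pools followed the sham pools of their time, with 114 and 36.5 for Pdk4. The dimmer Ucp3 probe gave -0.44 and -0.75 for TAC over sham. A cause of these differences between the sham pools was not tested.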

How the data were processed

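Hearts were profiled on 4 single-color Agilent arrays, 1 pool of mice for each of sham and TAC at 2 and 8 weeks, and the groups were taken from the labels. The authors deposited the scanner output, in which the processed signal is an intensity per spot, after background subtraction and without normalization between arrays. The file headers name Agilent Feature Extraction 10.7.3.1 and the submitters' processing notes 9.1. The paper names GeneSpring GX11, and its normalization is not given in the sources used here. The series also has a deposited value table, which is this intensity multiplied by 1 factor per array.

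From these files, outlier spots were left out, log2 was taken, the spots of a probe were averaged and the array's 75th percentile over probes was subtracted. Probes were named through the transcript in the file: 32342 carry one, and 29501 matched RefSeq or GENCODE, giving 21762 genes. The brightest probe of a gene was used. A gene was tested when well above background on 1 array or more of a pair, and was called past 1.5-fold, or over 20% below or 25% above sham, when the higher pool was well above background. With 1 array per condition there was no test, and lists were described by counts and medians beside all genes.

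The members and lists were chosen with earlier results of these data known. Named were all 41 members and, of the other metabolic lists, genes past 1.5-fold the same way at both times, with markers and the genes said to be chosen later. In the glucose list Pkm2 is an old name of Pkm and was counted once. The marker lists were hypertrophy, cardiomyocyte, atrial, endothelial, fibroblast, macrophage, adipocyte, brown fat, erythroid, skeletal muscle and smooth muscle. The alternatives were other scalings, quantile normalization, normexp background correction (offset 50, limma 3.58.1, R 4.3.3), the deposited table, other probes, other folds, outlier spots kept and a centring on bright genes. The counting was run on simulated data, a sham array with known folds and spot noise added. These data hold no variation between mice or pools, so the run does not bear on the precision of the ratios. All 4 arrays lie on 1 slide in 1 scan. Transcripts of Acot1 and Acot2 were aligned with blastn 2.17.0. Computations used Python 3.11.15, pandas 2.3.3 and numpy 2.4.6.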

Additional observations from a re-analysis of the deposited data

Results flagged for a closer look

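In 1 member and in 1 other fatty acid gene the TAC pool was over 25% above sham at 2 weeks and over 20% below it at 8 weeks. The difference between the times was not tested, since each time is 1 pair of pools. The synthetase gene Acsl3 gave a log2 ratio of 0.38 at 2 weeks, and -0.56 at 8 weeks. Its signals lay between 0.154 and 0.226 of the 75th percentile, and under normexp background correction the ratios were 0.08 and -0.29. Angptl4, an inhibitor of lipoprotein lipase, had 0.60 at 2 weeks and -0.87 at 8 weeks, with signals of 15.3 and 23.1 and of 8.58 and 4.71. Its sham pools differed by -0.83 and those of Acsl3 by 0.55.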

How the results depend on the processing

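Of 738 recomputed ratios of single members under 9 alternatives, 733 moved by less than the spread between spots of 0.171 and 5 by more. None of the ratios past 1.5-fold had a reversed direction. The 5 that moved by more were Acsl3 under normexp (0.08 and -0.29), Ucp3 with all probes averaged (-0.27 and -0.40) and Etfa at 8 weeks with all probes averaged (-0.43). A scaling by 1 factor per array moved all ratios of a comparison by the same amount, so these ratios were not separate checks. Unscaled, the members' median at 8 weeks went from -0.29 to -0.12, and this shift still counted as less than the spread. The tally is thus a coarse one. Smaller ratios could change sign without being counted as reversed. Fabp3 and Lpl at 8 weeks, lower as reported, had 0.06 and 0.08 unscaled. The median ratios of the members kept their direction at both times, and 34 to 37 of 41 were lower at 2 weeks and 32 to 37 at 8 weeks. The members lower past 1.5-fold at 8 weeks, 4 as reported, were 1 when scaled by the median of each array, 1 with no normalization, 1 under normexp and 2 relative to bright genes, a centring chosen after seeing the data, under which the count at 2 weeks was 0. At the lower threshold of 20% below and 25% above sham, 15 were lower and 1 higher at 2 weeks and 18 lower and 1 higher at 8 weeks. Past 2-fold, 0 were lower at 2 weeks and 1 at 8 weeks. Unscaled, the median of all genes shifted to 0.16 at 8 weeks and 0.12 between the sham pools. No paired analysis was possible because each condition was 1 array. No leave-one-out was possible for the same reason, and the spread between mice is not known.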
